A study of Mus musculus with 2 samples.

Results

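The matrix metalloproteinases (MMPs), the ADAMTS proteases and the tissue inhibitors of metalloproteinases (TIMPs) were taken from the expression table by symbol, as *Mmp* followed by a number, *Adamts* followed by a number, and *Timp1* to *Timp4*. This gave 45 of the 21628 entries, made up of 22 MMPs, 19 ADAMTS proteases and 4 TIMPs. RNA was sequenced from lingual epithelium of newborn (P0) *Sox2GFP* mice, in which green fluorescent protein reports *Sox2*, a transcription factor of taste bud cells and their progenitors. Pups were pooled, the epithelium was dissociated with enzymes, among them a collagenase and an elastase, and cells were sorted as GFP_High and GFP_Low, here GFPhigh and GFPlow. Both populations carried the reporter and differed in its brightness, which is known to be strong in taste buds and their progenitors and dim in basal keratinocytes elsewhere, and neither gate is a pure cell type. Some cells of the underlying mesenchyme may also be dimly GFP positive and could fall in the GFPlow gate. There was 1 library per population, so no value below has a replicate error, no test was possible, and each comparison is of these libraries.

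MMPs and ADAMTS proteases are zinc-dependent enzymes that are made as inactive precursors and cut proteins of the extracellular matrix and the cell surface. MMPs are secreted or held at the membrane and cut collagens, laminins, fibronectin and cadherins, whereas ADAMTS proteases are secreted, bind matrix through thrombospondin repeats and cut proteoglycans, procollagens or microfibril proteins. TIMPs bind the active site of the enzymes and block it, and in a growing epithelium these enzymes and inhibitors act at the border with the connective tissue. The values are FPKM, fragments per kilobase of transcript divided by the depth of the library, so levels of different genes can be set side by side per length of transcript. They measure RNA and neither protein nor enzyme activity, and in sorted populations fewer cells of a type and less RNA per cell cannot be told apart.

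*Sox2* itself was at 112 FPKM in GFPhigh and 59.0 FPKM in GFPlow cells. The taste bud and progenitor markers summed to 318 and 139 FPKM in GFPhigh and GFPlow cells. The 8 suprabasal keratinocyte markers summed to 73028 and 32483 FPKM, and the 7 basal keratinocyte markers to 25796 and 32952. The 11 fibroblast markers, none of them at 0 in either library, summed to 439 FPKM in GFPhigh and 1858 FPKM in GFPlow cells, 4.24-fold more. Most of this sum was *Col1a1*, *Col1a2*, *Col3a1* and *Dcn*. *Twist2* went the other way (2.27 and 0.50 FPKM), *Pdgfra* was about equal (1.42 and 1.46 FPKM), and the rest were higher in GFPlow cells. Markers of the Schwann lineage summed to 89.7 and 311 FPKM, and mast cell markers to 59.6 and 31.6 FPKM. All listed smooth muscle and pericyte markers had the higher value in GFPlow cells, beside 53.5% of all entries above 0. Among them were *Acta2* (16.3 and 49.5 FPKM) and *Tagln* (6.45 and 23.4 FPKM). Depth was estimated as about 27500000 fragments in the GFPhigh library and 35500000 in the GFPlow library, at which 1 read on a transcript of 2 kb is worth 0.020 and 0.016 FPKM. The labels state a greater depth than this estimate, so all read numbers below are approximate.

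Most of the RNA of these families came from a few genes, and most of the genes were low or silent. Of the 45 members, 5 were listed at 0 in both libraries and 19 stayed under 1 FPKM in both, counting those 5. At least 5 FPKM in either library was reached by 16 members, 35.6% of them, beside 49.8% of the 21590 entries compared. The whole set made up 0.0568% of all FPKM in GFPhigh and 0.0638% in GFPlow cells.

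**Figure D1:**
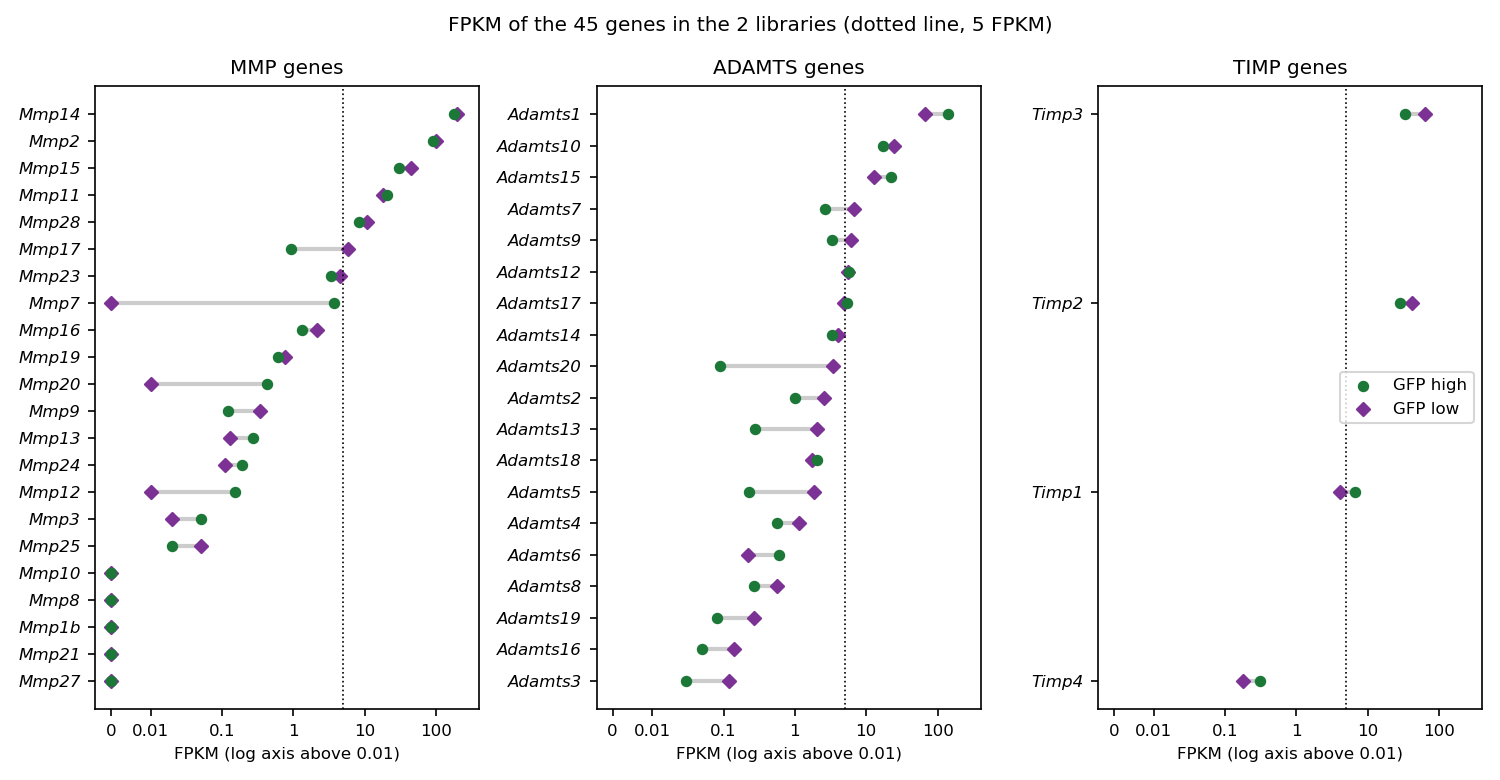
FPKM of the 45 members (horizontal axis, log scale above 0.01 and linear down to 0) in GFPhigh (green circles) and GFPlow cells (purple diamonds), by family and ordered by the higher value, with 1 library per population and no error bars; the dotted line marks 5 FPKM. *Mmp14*, *Adamts1* and *Mmp2* have the highest values, *Mmp7* is at 3.72 FPKM in GFPhigh cells and 0 in GFPlow cells, and *Adamts20* is at 0.09 and 3.37 FPKM.

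A member was counted as higher in a population where it reached 5 FPKM there and exceeded the other library at least 1.5-fold. By this rule 3 of the 16 members were higher in GFPhigh cells, *Adamts1*, *Adamts15* and *Timp1*, and 4 in GFPlow cells, *Mmp17*, *Adamts7*, *Adamts9* and *Timp3*. The background over all 10760 entries at 5 FPKM or more was 9.48% in the GFPhigh and 8.9% in the GFPlow direction, 18.4% in either, and the 7 members are 43.8% of 16. *Timp1*, *Mmp17*, *Adamts7* and *Adamts9* reached 5 FPKM only in the library where they were higher. With 5 FPKM required in each library, 2 members passed in the GFPhigh direction (*Adamts1* and *Adamts15*) and 1 in the GFPlow direction (*Timp3*). No share over all entries was taken under that stricter rule. Dividing each library by its FPKM sum (the TPM scale) shifted every log2 difference by -0.10. It left *Timp1* at 1.47-fold, short of the limit, and brought *Mmp15*, *Adamts10* and *Timp2* past it in the GFPlow direction. Of all the entries past the limits, 51.6% were higher in GFPhigh cells as deposited and 39.8% on the TPM scale.

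Without regard to size, 10 of the 16 members at 5 FPKM or more had the higher value in GFPlow cells, 62.5% beside 55.4% of all such entries. Among all members, 25 of the 40 above 0 had it there, also 62.5%, beside 53.5% of all entries above 0. The median difference between GFPhigh and GFPlow cells in log2(FPKM + 1) was -0.14 over the members and -0.02 over all entries. By family it was -0.12 for MMPs, -0.23 for ADAMTS proteases and -0.21 for TIMPs, and on this scale the difference of low genes is understated.

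**Figure D2:**
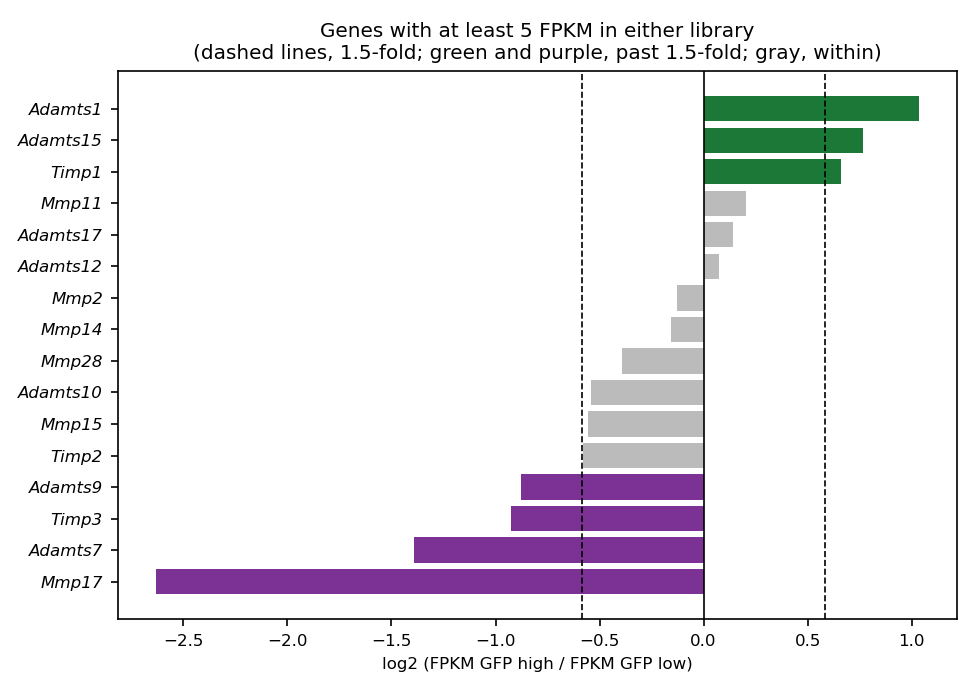
Log2 of the ratio of GFPhigh to GFPlow FPKM (horizontal axis) for the 16 members at 5 FPKM or more in either library, as bars without error since there is 1 library per population; dashed lines mark 1.5-fold, and green and purple bars are past it in the GFPhigh and GFPlow direction. The 3 green bars are *Adamts1*, *Adamts15* and *Timp1*, the longest purple bar is *Mmp17* (6.20-fold), and *Timp2*, *Mmp15* and *Adamts10* end just short of the line.

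The MMP RNA was mostly that of *Mmp14* and *Mmp2*, at like levels in both populations. *Mmp14* (ENSMUSG00000000957, mm10 chr14:54431612-54445364) encodes a membrane-anchored collagenase that also activates the gelatinase MMP2, and it was at 175 FPKM in GFPhigh and 195 FPKM in GFPlow cells. *Mmp2* (ENSMUSG00000031740, chr8:92827291-92853420), the gelatinase that acts on denatured collagen and on basement membrane, was at 90.1 and 98.5 FPKM. Both values were a little higher in GFPlow cells, 1.11-fold for *Mmp14* and 1.09-fold for *Mmp2*. Together they held 79.0% of the summed MMP FPKM in GFPhigh and 77.1% in GFPlow cells. The sum over the MMPs was 336 FPKM in GFPhigh and 381 FPKM in GFPlow cells.

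The other membrane-type MMPs were lower in level, and 1 of them differed past the limits. *Mmp17* (ENSMUSG00000029436, chr5:129584169-129611099), whose protein is held by a lipid anchor, was at 0.93 FPKM in GFPhigh and 5.77 FPKM in GFPlow cells, 6.20-fold higher. *Mmp15*, a transmembrane relative of *Mmp14*, was at 30.6 and 45.0 FPKM, 1.47-fold higher in GFPlow cells and just short of the limit. *Mmp16*, another transmembrane enzyme, was at 1.33 and 2.14 FPKM. *Mmp24* and *Mmp25*, the remaining genes of this class, reached no more than 0.19 and 0.05 FPKM. Of the 6 membrane-type genes, all but *Mmp24* had the higher value in GFPlow cells, beside 53.5% of all entries above 0. These range from *Mmp14*, 1.11-fold apart, to *Mmp25* at 0.02 and 0.05 FPKM.

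Among the other secreted MMPs, *Mmp11* had the highest level. *Mmp11*, a stromelysin activated inside the cell by furin-like convertases, was at 20.5 FPKM in GFPhigh and 17.8 FPKM in GFPlow cells. *Mmp28*, known as epilysin and made by keratinocytes, was at 8.18 and 10.7 FPKM. *Mmp23*, which lacks the hemopexin domain of most MMPs, was at 3.35 and 4.46 FPKM. None of these differed by as much as 1.5-fold. *Mmp9*, the second gelatinase and a product of leukocytes among other cells, was at 0.12 and 0.34 FPKM. Neutrophil markers summed to 1.53 and 0.86 FPKM, mostly *Ltf* (1.17 and 0.69 FPKM), and their relation to *Mmp9* was not tested. *Mmp19* did not exceed 0.75 FPKM, and *Mmp21*, known for its part in left-right patterning, was listed at 0.

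A cluster of MMP genes on chromosome 9 (mm10 chr9:7272514-7699585) held 9 members in the order *Mmp13*, *Mmp12*, *Mmp1b*, *Mmp3*, *Mmp10*, *Mmp8*, *Mmp27*, *Mmp20* and *Mmp7*. These include the secreted collagenases, the stromelysins and matrilysin, genes known for being switched on in inflamed or injured tissue. Summed, they came to 4.62 FPKM in GFPhigh and 0.17 FPKM in GFPlow cells, and none reached 5 FPKM. Most of the sum was *Mmp7* (ENSMUSG00000018623, chr9:7692090-7699585), the matrilysin of glandular epithelia, at 3.72 FPKM in GFPhigh cells and listed at 0 in GFPlow cells. At the estimated depth this is about 89 reads against 0.

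*Mmp20* (chr9:7628231-7674979), an enzyme known from tooth enamel, was at 0.43 FPKM in GFPhigh and 0.01 FPKM in GFPlow cells, about 37 reads against 1. Rounding of the deposited values alone allows a ratio between 28.3 and 87. *Mmp12*, the macrophage metalloelastase, was at 0.15 and 0.01 FPKM, where rounding alone allows 9.67 to 31. Neither range includes counting error. Its exons overlap those of *Mmp1b* on the opposite strand. *Mmp13*, a collagenase, was at 0.27 and 0.13 FPKM, and *Mmp3*, a stromelysin, at 0.05 and 0.02 FPKM, about 2 reads against 1. Of the cluster, 5 genes were thus above 0, all with the higher value in GFPhigh cells, and *Mmp1b*, *Mmp8*, *Mmp10* and *Mmp27* were at 0 in both. Among all entries above 0, 53.5% had the higher value in GFPlow cells. All of the 5 but *Mmp7* lay at or under 0.43 FPKM. The nearest genes on either side were expressed at like levels in both libraries, *Dcun1d5* at 67.6 and 77.7 FPKM and *Tmem123* at 189 and 161 FPKM. Macrophage and leukocyte markers summed to 22.0 and 24.8 FPKM.

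**Figure D3:**
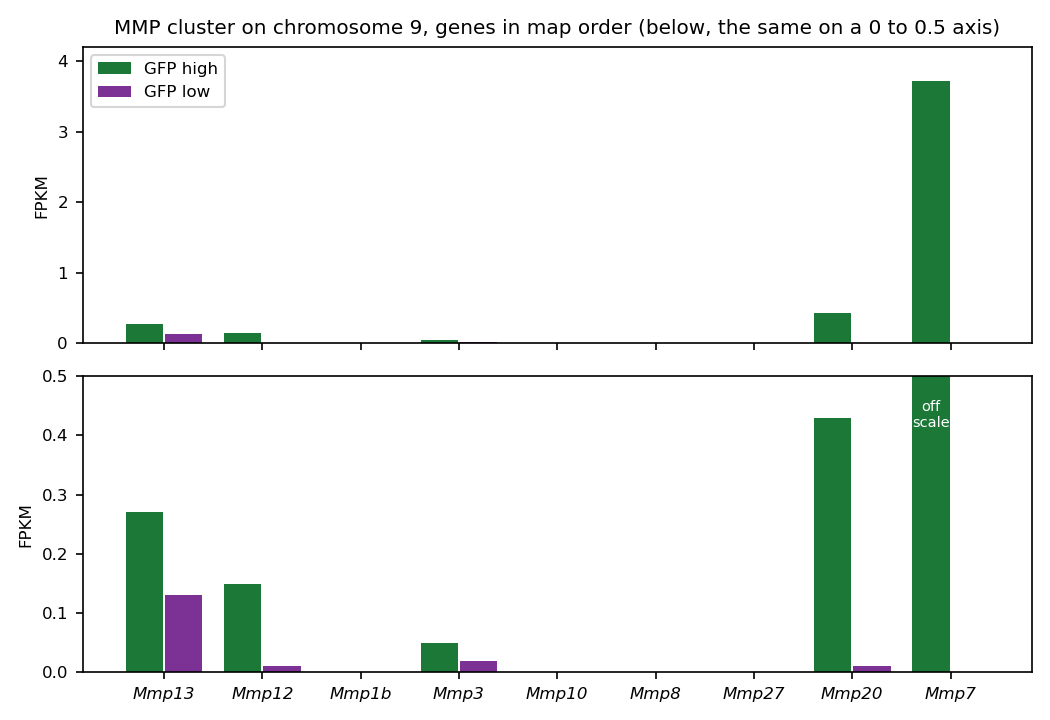
FPKM (bars from 0) of the 9 MMP genes of the chromosome 9 cluster in GFPhigh (green) and GFPlow cells (purple), in chromosomal order, 1 library per population, with the lower panel cut at 0.5 FPKM. *Mmp7* stands out at 3.72 FPKM in GFPhigh cells and is listed at 0 in GFPlow cells, and the other genes lie at or under 0.43 FPKM.

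The bases before the start sites of the cluster are shown because the same short runs of letters recur there. Sequences are from RefSeq (GRCm38.p6, 5′ to 3′ on the gene's strand), the 130 bases ahead of the outermost start, with matches to TGACTCA or TGAGTCA (the AP-1 motif) and to TATAAA or TTTATA (the TATA box) in capitals. The lines are *Mmp7* (chr9:7691960-7692089, plus strand), *Mmp20* (chr9:7628101-7628230, plus), *Mmp10* (chr9:7502212-7502341, plus), *Mmp3* (chr9:7445692-7445821, plus) and *Mmp13* (chr9:7272384-7272513, plus).
Mmp7: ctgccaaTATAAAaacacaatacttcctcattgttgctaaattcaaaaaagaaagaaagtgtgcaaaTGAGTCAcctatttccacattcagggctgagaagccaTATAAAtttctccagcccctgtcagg
Mmp20: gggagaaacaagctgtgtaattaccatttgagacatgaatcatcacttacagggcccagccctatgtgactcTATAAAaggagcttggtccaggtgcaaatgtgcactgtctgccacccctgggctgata
Mmp10: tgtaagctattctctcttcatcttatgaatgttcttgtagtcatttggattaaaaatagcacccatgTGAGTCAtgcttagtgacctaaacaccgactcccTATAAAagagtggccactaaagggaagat
Mmp3: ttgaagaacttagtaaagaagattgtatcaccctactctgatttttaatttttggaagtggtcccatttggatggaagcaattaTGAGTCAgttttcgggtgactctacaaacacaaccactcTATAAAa
Mmp13: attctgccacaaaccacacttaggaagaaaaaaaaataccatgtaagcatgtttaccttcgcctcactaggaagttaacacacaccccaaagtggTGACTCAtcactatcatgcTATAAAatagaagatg

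For comparison, the windows of the most abundant ADAMTS gene, the most abundant MMP gene and a TIMP gene follow, *Adamts1* (chr16:85803114-85803243, minus strand), *Mmp14* (chr14:54431468-54431597, plus) and *Timp1* (chrX:20870036-20870165, plus).
Adamts1: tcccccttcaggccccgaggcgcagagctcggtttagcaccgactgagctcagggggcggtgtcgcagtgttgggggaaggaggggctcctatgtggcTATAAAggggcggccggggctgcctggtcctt
Mmp14: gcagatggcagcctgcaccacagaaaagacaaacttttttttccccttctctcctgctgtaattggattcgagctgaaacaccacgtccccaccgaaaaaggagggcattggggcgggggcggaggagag
Timp1: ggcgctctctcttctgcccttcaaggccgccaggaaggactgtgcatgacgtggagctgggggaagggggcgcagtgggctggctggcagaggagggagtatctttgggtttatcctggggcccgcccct

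Promoter windows of 250 bases were found for 31 of the 45 members, among them all 9 of the cluster. The AP-1 motif, searched on both strands, was in the windows of *Mmp7*, *Mmp3*, *Mmp10*, *Mmp13* and *Mmp1b*, 5 of 9 in the cluster, and in 0 of the 22 windows outside it. Over all 27025 genes 4.43% of windows hold it. The match lay 63 bases before the start in *Mmp7* and *Mmp10*, 46 in *Mmp3*, 35 in *Mmp13* and 93 in *Mmp1b*. Genes with the motif included *Mmp7*, the highest of the cluster, and also *Mmp10* and *Mmp1b*, which were at 0 in both libraries. The TATA motif was in 6 of 9 windows of the cluster and in 2 of the 22 outside it, those of *Adamts1* and *Mmp21*, beside 13% of all windows. That background was not matched for content of G and C. The match lay 7 bases before the start in *Mmp3*, 16 in *Mmp13*, 26 and 123 in *Mmp7* and 29 in *Mmp10*. It lay at 49 in *Mmp1b*, 58 in *Mmp20*, 32 in *Adamts1* and 70 in *Mmp21*.

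For the factors of this tissue, CATTGTT or AACAATG (a SOX motif) was in the windows of *Mmp7* and *Mmp25*, 2 of 31 members, beside 3.35% of all windows. TGTTTAC or TGTTTGC and their reverse complements (a FOX motif) were in those of *Mmp10*, *Mmp13* and *Timp4*, beside 7.19%. TGGGTGGTC or GACCACCCA (a GLI motif) was in 0 members' windows, beside 0.207%. A match is a run of letters and not a bound site.

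**Figure D4:**
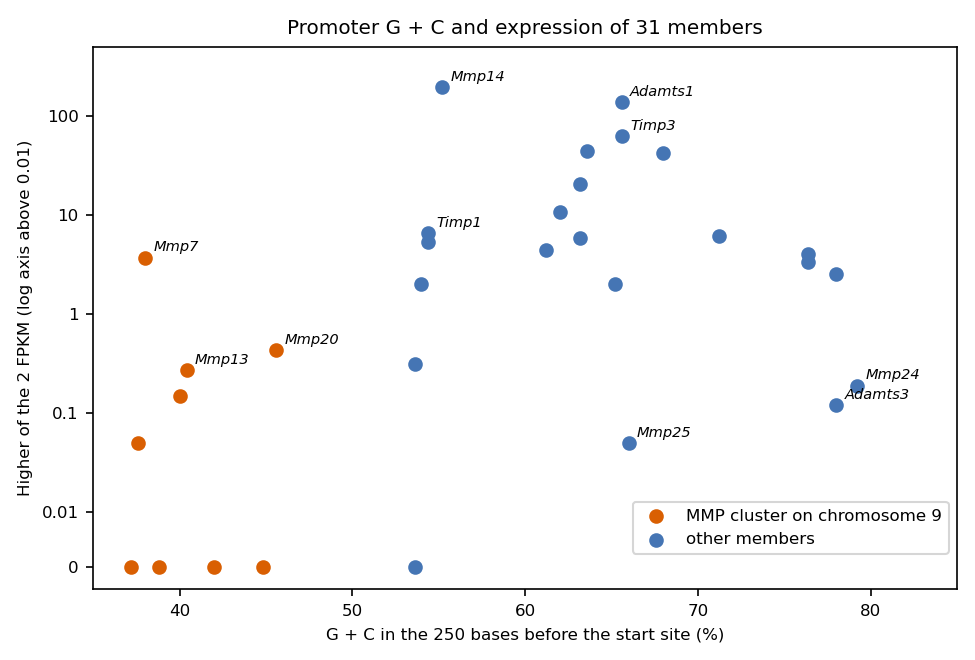
Share of G and C in the 250 bases before the start site (horizontal axis, percent) against the higher FPKM of the 2 libraries (vertical axis, log scale above 0.01) for the 31 members with a window. The 9 cluster genes (orange) lie between 37.2% and 45.6%, and the 22 others (blue) between 53.6% and 79.2%.

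The windows of the cluster were also poor in G and C, with a median of 40% against 64.4% for the other members and 52% for all genes. They held a median of 1 CpG, and the other members 15. The ranges of GC content in the cluster and outside it did not overlap among the 31 windows.

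The ADAMTS proteases differed in both directions, with 2 genes past the limits in each. *Adamts1* (ENSMUSG00000022893, chr16:85793827-85803113), a protease of versican and aggrecan, was at 139 FPKM in GFPhigh and 67.6 FPKM in GFPlow cells, 2.05-fold higher. *Adamts15* (chr9:30899155-30922452), which also cuts versican, was at 22.2 and 13.1 FPKM, 1.70-fold higher in GFPhigh cells. In the opposite direction, *Adamts9* (chr6:92772699-92943492), a conserved versican-cutting relative of *Adamts20*, was at 3.32 and 6.09 FPKM, 1.83-fold higher in GFPlow cells. *Adamts1* alone held 68.2% of the summed ADAMTS FPKM in GFPhigh and 46.1% in GFPlow cells. The sum was 203 FPKM in GFPhigh and 147 FPKM in GFPlow cells, a ratio of 1.39 that turned to 0.82 when *Adamts1* was left out.

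The other proteoglycan-cutting enzymes were low and had the higher value in GFPlow cells. *Adamts20* (chr15:94270163-94465418), known from its part in pigment cell survival and coat color in mice, was at 0.09 FPKM in GFPhigh and 3.37 FPKM in GFPlow cells. Rounding alone allows a ratio between 35.4 and 39.7, a range that leaves out counting error. *Adamts5* (chr16:85856173-85901828), the main aggrecan-cutting enzyme of mouse cartilage, was at 0.23 and 1.88 FPKM, 8.17-fold apart or about 67 against 707 reads. *Adamts4*, the second of the classic aggrecanases, was at 0.56 and 1.16 FPKM, and *Adamts8* did not exceed 0.56 FPKM. None of these reached 5 FPKM, so they stand outside the counts above in spite of the size of the ratios. Within the class the abundant genes *Adamts1* and *Adamts15* were thus higher in GFPhigh cells, and the other 5 had the higher value in GFPlow cells. The GFPlow value was the higher for 53.5% of all entries above 0.

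Neighboring ADAMTS genes differed in opposite directions. *Adamts1* and *Adamts5* lie side by side on chromosome 16 (chr16:85793827-85901828), and *Adamts15* and *Adamts8* on chromosome 9 (chr9:30899155-30963838). In each pair the abundant gene was higher in GFPhigh cells, and the low gene had its higher value in GFPlow cells, at 1.88 FPKM for *Adamts5* and 0.56 FPKM for *Adamts8*.

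Genes for enzymes that remove the amino-terminal propeptide of procollagens were low in both populations. *Adamts2* was at 0.99 FPKM in GFPhigh and 2.52 FPKM in GFPlow cells, and *Adamts14* at 3.33 and 4.01 FPKM. *Adamts3*, which also helps activate a lymphatic growth factor, did not exceed 0.12 FPKM. Summed, this class came to 4.35 FPKM in GFPhigh and 6.65 FPKM in GFPlow cells.

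Of the remaining ADAMTS genes, *Adamts7* passed the limits. *Adamts7* (chr9:90163069-90208071), an enzyme of cartilage and vessel walls that cuts cartilage oligomeric matrix protein, was at 2.61 FPKM in GFPhigh and 6.84 FPKM in GFPlow cells, 2.62-fold higher. *Adamts12*, which is close to *Adamts7* in structure, was at 5.82 and 5.53 FPKM, a difference whose direction turned on the TPM scale. *Adamts10* and *Adamts17*, both tied to fibrillin microfibrils, were at 17.0 and 24.6 FPKM and at 5.32 and 4.82 FPKM. These last 3 genes stayed under 1.5-fold.

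*Adamts13* (chr2:26973416-27009628), the protease of von Willebrand factor, was at 0.28 FPKM in GFPhigh and 2.02 FPKM in GFPlow cells, while endothelial markers summed to 36.6 and 26.0 FPKM. *Adamts18* was at 2.01 and 1.72 FPKM. *Adamts6*, *Adamts16* and *Adamts19* did not exceed 0.59, 0.14 and 0.27 FPKM. In the endothelial sum *Egfl7* alone was at 18.5 and 15.9 FPKM. *Tek* was the only endothelial marker higher in GFPlow cells (0.94 and 1.48 FPKM). The part of endothelial cells in the *Adamts13* values was not tested.

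The TIMPs were carried by *Timp3* and *Timp2*, and *Timp3* was higher in GFPlow cells. *Timp3* (ENSMUSG00000020044, chr10:86300372-86349506), which binds to the matrix and inhibits ADAMTS proteases as well as MMPs, was at 33.1 FPKM in GFPhigh and 62.9 FPKM in GFPlow cells, 1.90-fold higher. *Timp2* (chr11:118301069-118355740), which with MMP14 takes part in the activation of MMP2, was at 28.3 and 42.3 FPKM, 1.49-fold higher in GFPlow cells. *Timp1* (chrX:20870166-20874735), a weak inhibitor of membrane-type MMPs, went the other way, at 6.57 and 4.16 FPKM, 1.58-fold higher in GFPhigh cells. *Timp4* did not exceed 0.31 FPKM. Of the 50-nt windows of *Timp3* transcripts, 21.4% also occur in transcripts of other genes, counted on either strand. Exons of *Syn3* on the opposite strand overlap 21.3% of its exon length, and *Syn3* was at 1.25 and 1.23 FPKM. The part of shared windows in the *Timp3* level was not tested.

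Set against the proteases, inhibitor RNA took a smaller share in GFPhigh cells. The TIMPs summed to 68.3 FPKM in GFPhigh and 110 FPKM in GFPlow cells, and the ratio of this sum to that of the MMPs was 0.203 in GFPhigh and 0.288 in GFPlow cells. With the ADAMTS proteases added to the MMPs, it was 0.127 and 0.208. These ratios compare RNA levels and carry no measure of inhibition.

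Most of the substrates of these enzymes counted here were higher in GFPlow cells. Of 11 listed matrix and surface substrates at 5 FPKM or more, 9 were higher in GFPlow cells and 0 in GFPhigh cells, beside 8.9% and 9.48% of all entries at that level, with a listed gene not reported here left out of the list. *Col1a1* and *Col1a2*, the chains of type I collagen, were at 34.4 and 33.2 FPKM in GFPhigh and at 172 and 167 FPKM in GFPlow cells. *Col3a1*, the chain of type III collagen, was at 193 and 966 FPKM, and the basement membrane chains *Col4a1* and *Col4a2* were 4.33-fold and 4.68-fold higher in GFPlow cells. *Vcan*, the versican that ADAMTS1 cuts, was at 33.2 FPKM in GFPhigh and 72.9 FPKM in GFPlow cells, opposite in direction to *Adamts1*.

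*Col5a2*, a chain of type V collagen, was 2.24-fold, *Fbn2*, a fibrillin, 1.72-fold and *Fn1*, fibronectin, 1.54-fold higher in GFPlow cells. *Cdh1*, the epithelial cadherin that several MMPs shed, was at 382 and 309 FPKM and within the limits. The substrates summed to 832 FPKM in GFPhigh and 2142 FPKM in GFPlow cells, and 4 of the 16 listed are also among the fibroblast markers, whose sum was 4.24-fold higher in GFPlow cells. Markers of the Schwann lineage and of smooth muscle and pericytes were also higher in GFPlow cells. The part of any of these cell types in the substrate values, and in those of the members higher in GFPlow cells, was not tested.

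**Figure D5:**
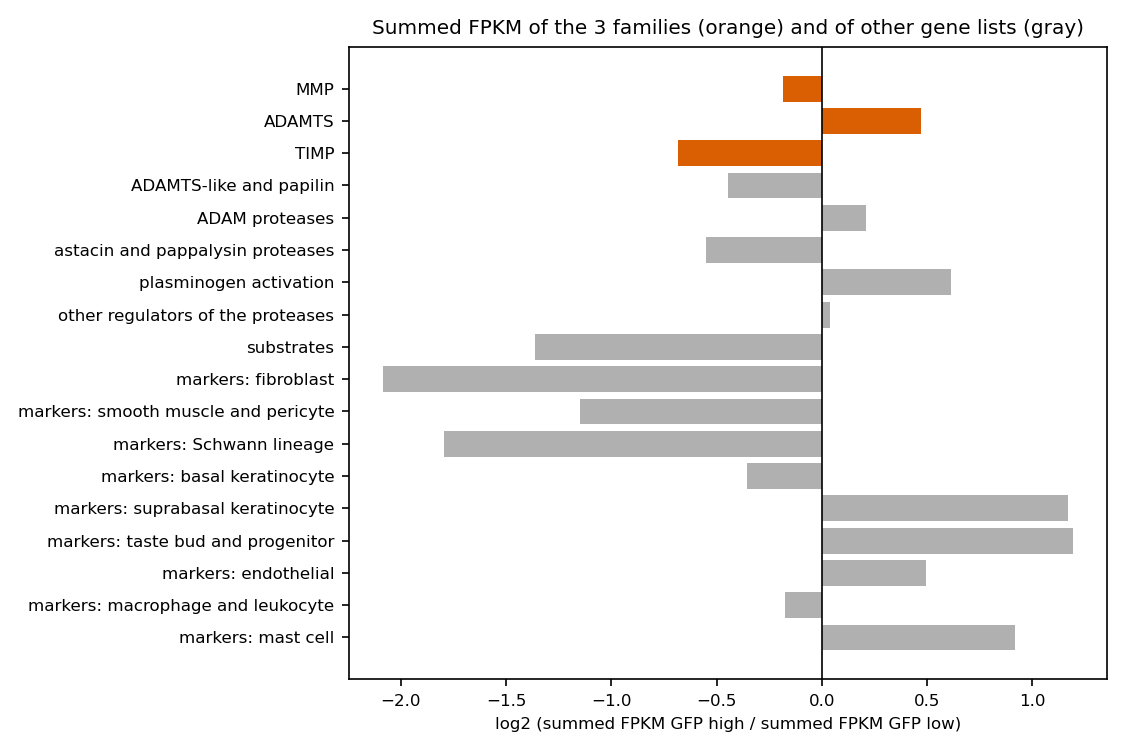
Log2 of the ratio of summed FPKM in GFPhigh to GFPlow cells (horizontal axis) for the 3 member families (orange) and for related gene lists and cell type markers (gray), 1 library per population. The bars of the fibroblast markers and the substrates reach far toward GFPlow cells (4.24-fold and 2.57-fold). Those of the Schwann lineage and of the smooth muscle and pericyte markers also point toward GFPlow cells. The bar of the ADAMTS proteases points toward GFPhigh cells (203 against 147 FPKM), a direction that turns without *Adamts1*.

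Relatives and regulators of the proteases were mixed in direction. The products of ADAMTS-like genes resemble ADAMTS proteases without the catalytic part. Of the 5 at 5 FPKM or more, 3 were higher in GFPlow cells, beside 8.9% of all entries at that level. The 3 were *Adamtsl1* (3.84 FPKM in GFPhigh and 24.96 FPKM in GFPlow cells), *Thsd4* (3.57-fold) and *Adamtsl4* (2.15-fold). ADAM proteases are membrane-anchored relatives that shed surface proteins, and 7 of those listed were at 5 FPKM or more. *Adam28* (2.09-fold) and *Adam8* (1.99-fold) were higher in GFPhigh cells and *Adam19* (14.3-fold) and *Adam9* (1.76-fold) in GFPlow cells. Over all entries at that level, 18.4% passed in either direction. *Adam12* (0.14 and 3.79 FPKM) and *Adam33* (0.68 and 2.74 FPKM) stayed under 5 FPKM. *Pappa*, a protease of insulin-like growth factor binding proteins, was 4.72-fold higher in GFPlow cells.

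In the plasminogen system, which activates several MMPs, *Plaur*, the urokinase receptor, and *Serpinb2*, an inhibitor of urokinase, were 2.10-fold and 2.57-fold higher in GFPhigh cells. *Serpine2*, an inhibitor of thrombin and plasminogen activators, was 3.90-fold higher in GFPlow cells, and *Plau*, urokinase itself, was at 47.2 and 44.4 FPKM. *Reck*, a membrane-anchored inhibitor of MMPs, was at 1.64 FPKM in GFPhigh and 10.6 FPKM in GFPlow cells, 6.46-fold higher, the same direction as *Timp3*. *Pcolce*, an enhancer of procollagen processing, was 2.11-fold higher in GFPlow cells. *Furin*, a convertase that activates *Mmp14* and *Mmp11* products, was at 68.9 and 99.1 FPKM, and *Bsg*, a surface inducer of MMPs, at 644 and 657 FPKM, both within the limits.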

How the data were processed

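RNA of 1 library of SOX2-GFPhigh cells and 1 library of SOX2-GFPlow cells was analyzed. The authors trimmed single-end reads with Trimmomatic 0.36, mapped them to mm10 with GSNAP, obtained FPKM with Cufflinks 2.2.1 and deposited 1 FPKM per gene and population, rounded to 2 decimals. Their columns are named means, although the labels give 1 library each. A deposited fold column, made by the authors from the FPKM, was not used.

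Of 21628 entries, the 21 that GENCODE M21 types as other than protein-coding and those without a number in either library were left out, leaving 21590. With 1 library per population, no test was made. Ratios were taken from the FPKM, and a gene passed at 5 FPKM or more in the higher library with a ratio of at least 1.5. Medians used log2(FPKM + 1), which understates the difference of low genes. Genes with at least 1 FPKM in either library are each named, the others in groups, as are genes of related lists past the same limits; other genes named were chosen after their values were seen. The members and lists were chosen with earlier results of these data known. A gene of the substrate list is not reported here and was left out of its counts and sums. Computation used Python 3.11.15 and pandas 2.3.3. The rule for passing was checked on simulated data without noise, with changes planted well past the limits. That check tells only whether the rule is computed as stated, and nothing about error near 1.5-fold or 5 FPKM.

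Positions are those of GENCODE M21 on mm10. Shared windows are the share of 50-nt windows of a gene's transcripts that occur in transcripts of another gene, on either strand. Upstream sequences are from RefSeq (GRCm38.p6), 1 window per gene at its outermost start site. Whether FPKM used strand is not given in the sources used here.

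Depth was sought in genes with 1 annotated transcript, by multiplying low FPKM by the exon length less 200 nt. At 27500000 fragments in the GFPhigh library, 59.6% of 344 values lay within 0.15 of a whole read, and at 35500000 in the GFPlow library, 57.1% of 254, against 30% expected at a depth not chosen for this. The labels state a greater depth. Read numbers are therefore approximate, and no counts were recovered. The alternatives tried are given in the closing section.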

Additional observations from a re-analysis of the deposited data

How the results depend on the processing

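With 1 library per population, no library could be left out, and the spread between animals is unknown. No paired analysis was possible because each population has 1 library. A count or a summed ratio was taken to have moved at more than 1.5 times, a limit chosen here in place of a replicate error.

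The 3 members past the limits in the GFPhigh direction became 11 without an FPKM minimum and 1 at 2-fold. The 4 members in the GFPlow direction became 1 with 5 FPKM required in each library, 10 with a minimum of 1 FPKM, 1 with a minimum of 10 FPKM, 16 without a minimum, 2 at 2-fold and 7 on the TPM scale. The TPM scale added *Mmp15*, *Adamts10* and *Timp2* to the GFPlow direction. The summed ADAMTS ratio of GFPhigh to GFPlow turned from 1.39 to 0.82 without *Adamts1*. The GFPhigh to GFPlow ratio of *Adamts12* turned from 1.05 to 0.98 on the TPM scale, which lowers every ratio by the same factor. *Timp1* lost its place past 1.5-fold on the TPM scale (1.47) and with 1 added to each FPKM (1.47). Scaling the libraries to a median ratio of 1 divided every ratio by 0.973, so only ratios between 0.973 and 1 could change sides. None of the 25 members whose ratio was followed lay there, so this scaling could not turn a direction. The median log2 differences over the members, the MMPs and the ADAMTS genes stayed negative under all 4 alternatives, but 3 of these could not turn them. Adding 0.1 in place of 1 keeps each gene's direction, and most genes above 0 were higher in GFPlow cells. The TPM scale moves every difference further down, and no member's ratio lay where the median scaling could turn it. Only dropping the genes whose FPKM averaged under 1 could have changed the sign. The medians were then -0.35, -0.33 and -0.51.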

Other observations

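*Timp1*, *Timp3* and *Timp4* lie within or overlap the genes of synapsins, proteins of nerve terminals, on the opposite strand, and no such overlap was annotated for *Timp2*. *Timp1* lies in an intron of *Syn1*, which had an FPKM of 0.02 in GFPhigh and 0.10 in GFPlow cells. *Timp3* shares 21.3% of its exon length with *Syn3*, at 1.25 and 1.23 FPKM, and *Timp4* shares 1.53% with *Syn2*, at 0.27 and 0.22 FPKM. All 3 synapsins were thus at or below 1.25 FPKM in both libraries.

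Overlap on the opposite strand was also annotated for *Mmp11*, of which 5.58% of the exon length is shared with *Chchd10* (57.2 FPKM in GFPhigh and 37.3 in GFPlow cells), and for *Mmp19*, of which 22.3% is shared with *Tmem198b* (21.2 and 20.1 FPKM). *Mmp24* shares 13.6% with *BC029722* (21.4 and 21.2 FPKM). Each of these partners was expressed more strongly than the member, and their part in the members' FPKM was not tested.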
